A study of Mus musculus with 20 samples.

Results

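Zhx1, Zhx2 and Zhx3 encode the zinc fingers and homeoboxes proteins, a small family of nuclear proteins that combine C2H2 zinc fingers with a row of homeodomains. The 3 genes are all the probe sets of the platform whose single gene symbol is Zhx1, Zhx2 or Zhx3, 1 probe set each, and they stand among 15057 genes that passed the filter on low signal. The family was brought in by Zhx2, which was selected on its higher signal in dark-adapted than in light-adapted arrays of these same data. The dark and light values of the family are therefore given as a description, with no test.

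Zhx proteins form dimers with each other and with the A subunit of the transcription factor NF-Y, and they lower transcription from promoters to which NF-Y binds. Zhx2 is best known from mouse liver, where it keeps the alpha-fetoprotein gene Afp silent after birth. Zhx1 also binds the DNA methyltransferase Dnmt3b. Whether and how these proteins act in the adult retina was not measured here, where transcripts alone were assayed.

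RNA came from retinas of adult C57BL/6 mice aged 7 to 8 weeks, which had spent 3 h in a dark chamber at no more than 0.4 lux or had been adapted to light for 6 h in a room lit at 450 lux. From each state a laser cut out 4 layers, those of the photoreceptors (the outer nuclear layer with outer and inner segments), of the inner nuclei, of the inner plexiform synapses and of the ganglion cells, and the undissected whole retina was measured beside them. This gives 10 groups of 2 arrays, 20 in all. No label says which animal an array came from, nor how many were pooled, so p-values measure the spread between deposited arrays. That spread may be technical, and is then too small a measure of the spread between animals. If layers share a retina, the arrays are not independent, which the main fit did not model. Adaptation goes with its duration, and the hour at which animals were killed is not given in the sources used here, so state, duration and time of day cannot be told apart. Nor is it given whether dark-adapted and light-adapted animals came from 1 stock, so a difference of stock and one of state cannot be told apart either. In tissue samples of this kind fewer cells of a type and less RNA per cell cannot be told apart either.

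Rod and ganglion cell markers were highest in the layers that bear their names, while the inner nuclear and inner plexiform layers were less distinct. Rod markers averaged a log2 level of 9.28 to 9.42 in dark-adapted and 9.16 to 9.17 in light-adapted photoreceptor layers, and 5.28 to 7.45 in the other layers. Ganglion cell markers averaged 7.28 to 8.27 in the ganglion cell layer and at most 6.37 in the other layers, while the bipolar markers, at 6.55 to 7.41 in the inner nuclear layer, overlapped with up to 6.75 in the inner plexiform layer. Amacrine markers averaged 6.61 to 7.59 in the inner plexiform layer and 6.43 to 6.93 in the inner nuclear layer. Probe sets of 30 Y-linked symbols had a median intensity of 192.25 to 306.2 on 5 arrays, all of them light-adapted, and of 8.6 to 25.05 on the remaining 15, which include all dark-adapted arrays. Signal from Y-linked genes thus goes in part with adaptation, and its part in the dark minus light values was not tested beyond leaving these arrays out. These 5 arrays are replicate 1 of the photoreceptor layer, the inner nuclear layer and the whole retina and both replicates of the ganglion cell layer. Across genes, replicates of a group correlated at 0.851 to 0.956. Replicate 2 of the light-adapted whole retina had the lowest median correlation with other groups, 0.721. The light-adapted inner plexiform layer arrays came next, at 0.739 (replicate 1) and 0.768 (replicate 2). Values below are GCRMA intensities on a linear scale unless called log2, and intensities of different probe sets are not comparable with each other.

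Zhx2 was high on 4 arrays and lower on all others. In the photoreceptor layer it read 143.2 and 141.7 on the dark-adapted arrays, against 25.5 and 41.1 on the light-adapted ones. In the whole retina it read 145.9 and 131.3 after dark adaptation, against 38.5 and 21.6 after light adaptation. In both tissues the dark-adapted arrays lay above the light-adapted ones with no overlap, as did those of 16.1% of all genes in the photoreceptor layer and 13.7% in the whole retina. Both tissues hold the photoreceptors, but which cells gave the signal was not tested.

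In the layers of the inner retina the dark and light readings of Zhx2 overlapped. The inner nuclear layer gave 28.2 and 26.1 in the dark, against 31.9 and 21.6 in the light. The ganglion cell layer gave 47.7 and 36.6 in the dark, against 41.1 and 33.9 in the light. The inner plexiform layer gave 39.7 and 21.9 in the dark, against 36.1 and 61.0 in the light. The 4 dark-adapted photoreceptor layer and whole retina arrays ran from 131.3 to 145.9, while the other 16 arrays ran from 21.6 to 61.0 with a median of 35.0.

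**Figure D1:**
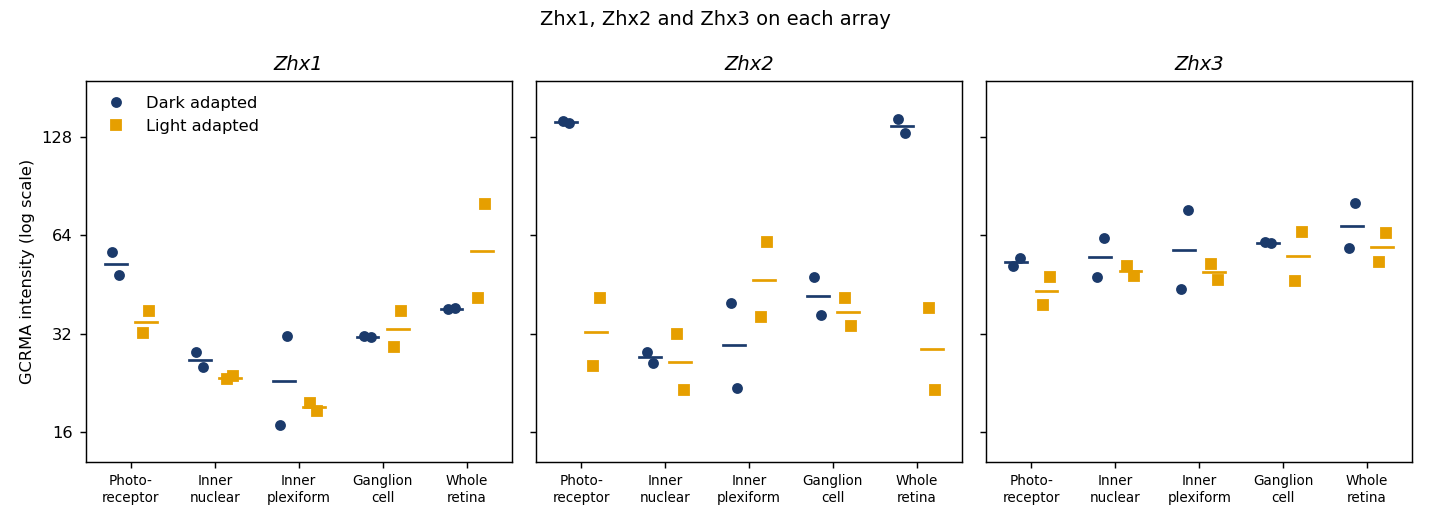
GCRMA intensity (log scale) of Zhx1, Zhx2 and Zhx3 on each of the 20 arrays, by tissue, with dark-adapted arrays as circles and light-adapted ones as squares; the bar is the mean of the 2 arrays on the log2 scale. Zhx2 reads 131.3 to 145.9 on the dark-adapted photoreceptor layer and whole retina arrays and at most 61.0 elsewhere, while Zhx3 stays between 39.3 and 80.7.

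On the log2 scale Zhx2 was 2.14 ± 0.35 higher in the dark than in the light in the photoreceptor layer (difference ± SE of the fit, 2 arrays each), which is a 4.40-fold difference. The whole retina gave a difference of 2.26 ± 0.35, or 4.80-fold. The inner layers gave 0.05 ± 0.35 in the inner nuclear, 0.16 ± 0.35 in the ganglion cell and -0.67 ± 0.35 in the inner plexiform layer. These are the values for which the gene was chosen, so no p-value is given. Ranked among 15057 genes by this difference, Zhx2 was number 1 in the whole retina and number 2 in the photoreceptor layer. In the photoreceptor layer the intensities of 7 genes passed an adjusted p of 0.05 in the dark against light comparison (0.0465% of genes), and in the whole retina 4 genes did (0.0266%). Leaving out single arrays moved these counts to between 2 and 8 and between 2 and 4.

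Leaving out single arrays kept the Zhx2 difference between 1.79 and 2.48 in the photoreceptor layer. For the whole retina it came to 2.68 with light-adapted replicate 1 left out and to 1.85 with replicate 2 left out. Dropping the 5 arrays that carry Y-linked signal leaves 1 light-adapted array in each of these tissues, and the differences were then 1.79 in the photoreceptor layer and 2.68 in the whole retina.

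**Figure D2:**
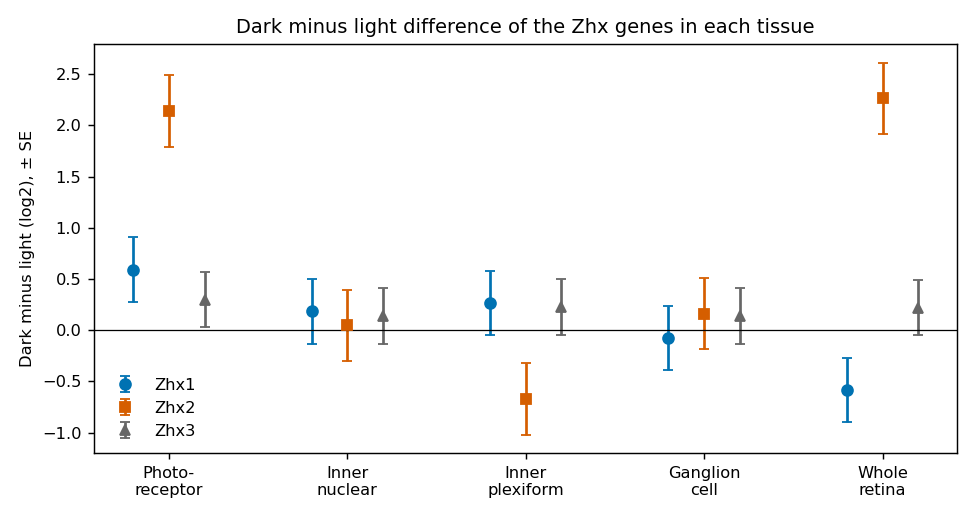
Dark minus light difference (log2) of Zhx1, Zhx2 and Zhx3 in each tissue, from 2 arrays against 2; bars show the standard error of the fit. Zhx2 is at 2.14 in the photoreceptor layer and 2.26 in the whole retina, and the other points lie between -0.67 and 0.59.

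Zhx2 was chosen on these arrays, so the count that follows describes its pattern and gives it no support. Of all genes, 13 (0.0863%) had the dark-adapted photoreceptor layer and whole retina arrays all above every other array. The gap between the lowest of the 4 and the highest of the 16 was 1.11 for Zhx2 on the log2 scale, the second widest of these. The widest gap, 1.13, belonged to Atp1b3, a sodium pump beta subunit, and the third, 0.85, to Paip2, a regulator of poly(A)-binding protein. Atp1b3 and Paip2 were picked out here after their values were seen, and the next gap was 0.18.

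A cone opsin gene moved on the same arrays in the opposite direction. Opn1sw, the short-wavelength cone opsin, was at or under 8 on both dark-adapted photoreceptor layer arrays, against 628.0 and 556.7 on the light-adapted ones. It was again at or under 8 on both dark-adapted whole retina arrays, against 594.1 and 600.8 on the light-adapted ones. The 5 cone markers together averaged a log2 level of 7.22 to 7.24 in dark-adapted and 8.16 to 8.2 in light-adapted photoreceptor layers, and Opn1sw was the only one of the 5 whose dark-adapted arrays lay below the light-adapted ones there. The other cone opsin gene, Opn1mw, read 292.8 and 343.5 in the dark-adapted photoreceptor layer, against 165.7 and 190.5 in the light-adapted one. Cone arrestin Arr3 read 290.7 and 293.2 in the dark, against 230.9 and 186.7 in the light, in the same layer. In that layer the cone genes Gnat2 and Pde6c overlapped between the states. So did the rod transducin gene Gnat1, at 1870.4 and 2053.3 in the dark, against 1757.5 and 2062.7 in the light. The rod genes Pde6a and Cnga1 overlapped too. The rod genes Rcvrn (627.3 and 521.5 against 427.9 and 385.1) and Nrl (198.3 and 156.4 against 148.5 and 125.0) lay higher in the dark. In the whole retina Gnat2 lay lower in the dark, at 232.2 and 242.8 against 264.2 and 293.4. Opn1mw, Arr3 and Pde6c overlapped there. Rod markers of the whole retina averaged a log2 level of 9.04 to 9.06 in the dark and 8.88 to 8.93 in the light. The part that whatever separates these arrays has in the Zhx2 values was not tested.

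Markers of other cell types were read in the same tissues. The 2 measured pigment epithelium markers, of 4 listed, averaged a log2 level of 4.67 to 4.81 in dark-adapted and 4.66 to 4.95 in light-adapted photoreceptor layers. In the whole retina their average did not overlap, at 4.7 to 4.85 in the dark and 4.41 to 4.63 in the light. Of all single genes, 13.7% lay above in this way there. Ttr did so, at 29.1 and 28.2 in the dark against 24.1 and 18.5 in the light. Best1 overlapped, at 28.4 and 24.1 in the dark against 25.4 and 24.5 in the light. The part of these markers in the Zhx2 values was not tested. The 4 vascular markers averaged, in the photoreceptor layer, 5.31 to 5.42 in the dark and 5.32 to 5.37 in the light. Müller glia markers averaged 5.79 to 5.88 in the dark and 5.86 on both light-adapted arrays of that layer.

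**Figure D3:**
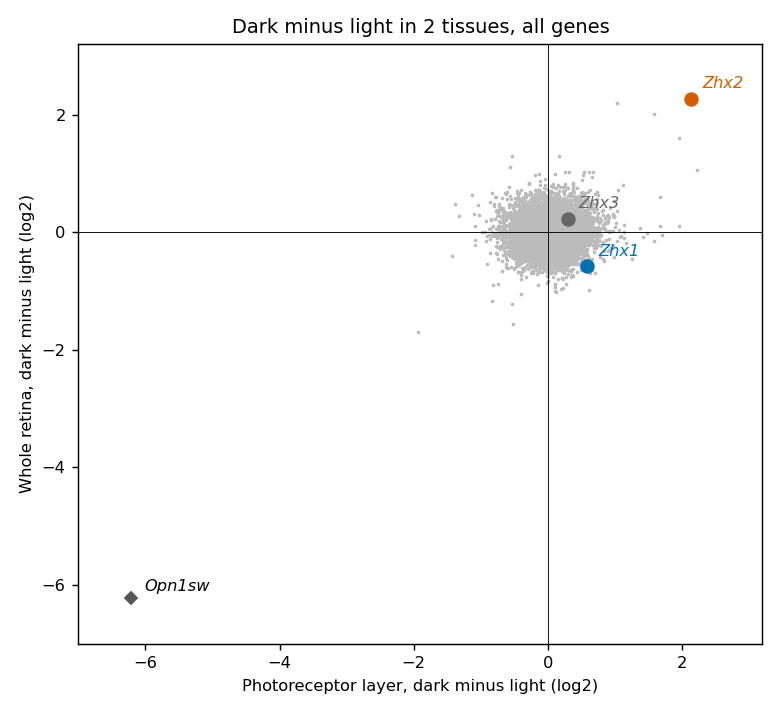
Dark minus light difference (log2) of every gene in the photoreceptor layer (horizontal) and in the whole retina (vertical), 1 grey point per gene. Zhx2 lies at 2.14 and 2.26, Zhx1 at 0.59 and -0.58, Zhx3 at 0.30 and 0.22, and the cone opsin gene Opn1sw, whose dark-adapted arrays are at the floor, at -6.21 and -6.22.

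Zhx1 and Zhx3 had smaller dark and light differences. Zhx1 read 56.8 and 48.5 in the dark-adapted photoreceptor layer, against 32.2 and 37.7 in the light-adapted one. In the whole retina it read 38.1 and 38.4 in the dark, against 41.1 and 80.0 in the light. The order of dark and light thus turned between the 2 tissues, with differences of 0.59 ± 0.31 and -0.58 ± 0.31, and no overlap in either. The inner nuclear layer read 28.2 and 25.3 in the dark, against 23.3 and 23.7 in the light, again without overlap. Rod markers moved with this, at a log2 level of 6.54 to 7.16 in the dark-adapted and 5.33 to 5.36 in the light-adapted inner nuclear layer, and their part in the Zhx1 values was not tested. The inner plexiform layer read 16.8 and 31.5 in the dark, against 19.6 and 18.6 in the light. For the ganglion cell layer the values were 31.6 and 31.2 in the dark, against 29.2 and 37.6 in the light, and in both of these layers they overlapped.

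Zhx3 kept to 39.3 to 80.7 over all arrays. It read 51.8 and 54.7 in the dark-adapted photoreceptor layer, against 39.3 and 47.7 in the light-adapted one, which did not overlap. The whole retina read 58.4 and 80.7 in the dark, against 53.2 and 65.2 in the light. There and in the 3 inner layers the dark and light readings of Zhx3 overlapped, with differences of 0.14 to 0.23. The value of 0.23, in the inner plexiform layer, was 0.63 without its dark-adapted replicate 1 and turned to -0.17 without replicate 2. Averaged over the 5 tissues the dark minus light difference was 0.08 ± 0.14 for Zhx1, 0.79 ± 0.16 for Zhx2 and 0.20 ± 0.12 for Zhx3. All 3 genes had both dark-adapted photoreceptor layer arrays above both light-adapted ones, as did 16.1% of all genes. In the inner nuclear layer Zhx1 alone of the family did, beside 11.9% of all genes. In the whole retina Zhx2 did, beside 13.7%, and Zhx1 had both dark-adapted arrays below the light-adapted ones, beside 11.1%. Zhx2 was chosen on this comparison, so nothing is read from these counts.

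The second factor of the study is the layer, and for Zhx1 and Zhx3 it can be tested. Dark-adapted and light-adapted arrays were averaged, and each layer was set against the mean of the other 3 (4 arrays against 12) in limma, with Benjamini-Hochberg adjustment over all genes. Zhx1 was higher in the photoreceptor layer and lower in the inner plexiform layer. It passed the low-signal filter, a log2 value over 5, on 9 of 20 arrays. None of these was from the inner nuclear layer (at most 28.2) or the inner plexiform layer (at most 31.5). Zhx1 thus entered the test through arrays of the tissues where it read higher. Zhx3 passed the test in no layer.

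Zhx1 had a log2 level of 5.42 ± 0.37 in the photoreceptor layer (SD, n = 4 here and for the next layers), 5.01 ± 0.16 in the ganglion cell, 4.65 ± 0.13 in the inner nuclear and 4.39 ± 0.40 in the inner plexiform layer. The photoreceptor layer exceeded the other 3 by 0.74 ± 0.18, or 1.67-fold (adjusted p = 0.012, in a comparison that called 12.9% of genes). The inner plexiform layer differed from the other 3 by -0.64 ± 0.18 (adjusted p = 0.028, with 13.6% of genes called). That share rests on the light-adapted arrays of the layer, without which 35 genes were called in place of 2045. Neither the inner nuclear layer (-0.29 ± 0.18, adjusted p = 0.64, 0.611% called) nor the ganglion cell layer (0.19 ± 0.18, adjusted p = 0.82, 1.87% called) passed.

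Both calls of Zhx1 depended on few arrays. That of the photoreceptor layer was lost without replicate 2 of its light-adapted arrays (adjusted p = 0.078) or replicate 1 of its dark-adapted ones (0.073). Within the dark-adapted arrays the difference was 0.97 ± 0.26 (adjusted p = 0.039), and within the light-adapted ones 0.50 ± 0.26 (adjusted p = 0.31). The difference of the inner plexiform layer was -0.62 ± 0.26 within the dark-adapted arrays (adjusted p = 0.39) and -0.65 ± 0.26 within the light-adapted ones (adjusted p = 0.092). Its call was lost without either light-adapted array of the layer (adjusted p = 0.069 and 0.071) or replicate 1 of the dark-adapted ones (0.20, with a difference of -0.41).

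In the order of Zhx1 levels no layer differed from its neighbour by the test. The photoreceptor layer was 0.41 ± 0.22 above the ganglion cell layer (adjusted p = 0.37, in a comparison that called 7.66% of genes). The inner nuclear layer differed from the ganglion cell layer by -0.36 ± 0.22 (adjusted p = 0.80, 0.458% called) and from the inner plexiform layer by 0.26 ± 0.22 (adjusted p = 0.55, 4.85% called). Of the wider steps, the photoreceptor layer exceeded the inner plexiform layer by 1.03 ± 0.22, or 2.04-fold (adjusted p = 0.0040, 21.4% called, but 0.072 without the light-adapted arrays of the inner plexiform layer). It was 0.77 ± 0.22 above the inner nuclear layer (adjusted p = 0.054, 5.33% called). That step passed under 5 alternatives (adjusted p = 0.016 to 0.049), among them the replicate block (0.027), and did not pass under 6 others. It also passed without any 1 of 4 arrays of other tissues (0.028 to 0.029), but leaving out other single arrays raised the adjusted p to as much as 0.20. The inner plexiform and ganglion cell layers differed by -0.62 ± 0.22 (adjusted p = 0.13, 3.1% called).

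For Zhx3 the log2 levels ran from 5.59 ± 0.21 in the photoreceptor layer (SD, n = 4) through 5.71 ± 0.19 in the inner nuclear and 5.74 ± 0.36 in the inner plexiform to 5.86 ± 0.22 in the ganglion cell layer. The photoreceptor layer differed from the other 3 by -0.19 ± 0.16 (adjusted p = 0.48), with a 95% interval of -0.51 to 0.14. The other layers differed from the rest by -0.02 to 0.18, with adjusted p of 0.80 to 0.98. Between pairs of layers the adjusted p of Zhx3 was 0.51 to 0.95.

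Zhx2 shows its layers only with its adaptation. Its layer values are given with no test, since the dark-adapted photoreceptor layer arrays that carry them were used to choose the gene. Averaged over both states the photoreceptor layer was 1.00 ± 0.20 above the other 3 layers. Within the dark-adapted arrays the difference was 2.14 ± 0.29, and within the light-adapted ones -0.15 ± 0.29. Among the light-adapted arrays the inner plexiform layer had the highest mean, with readings of 36.1 and 61.0, and stood 0.57 ± 0.29 above the other 3. Among the dark-adapted arrays the layer with the next highest mean after the photoreceptors was the ganglion cell layer, with 47.7 and 36.6.

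**Figure D4:**
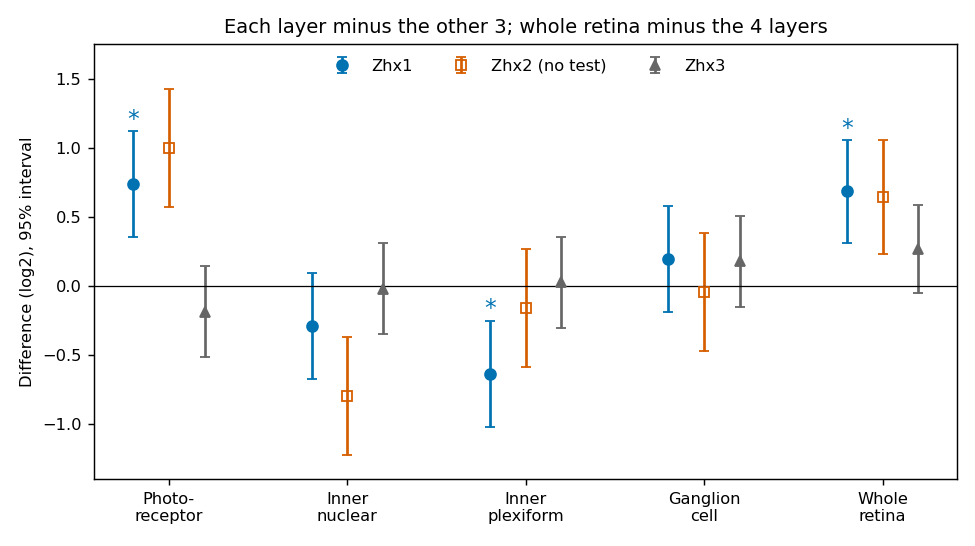
Difference (log2) of each layer from the mean of the other 3 layers, and of the whole retina from the mean of the 4 layers, for Zhx1, Zhx2 and Zhx3, with 95% intervals of the fit; a star marks an adjusted p under 0.05, and Zhx2 (open squares) was not tested. Zhx1 is at 0.74 in the photoreceptor layer and -0.64 in the inner plexiform layer, and Zhx3 lies between -0.19 and 0.27.

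The 4 whole retina arrays were set against the average of the layers (16 arrays), a comparison in which 48.5% of genes were called. Zhx1 was 0.68 ± 0.18 higher there (adjusted p = 0.0052). That difference rested on 1 array: replicate 2 of the light-adapted whole retina read 80.0, and without it the difference was 0.44 ± 0.18 (adjusted p = 0.085). Within the dark-adapted arrays it was 0.27 ± 0.25 (adjusted p = 0.44), and within the light-adapted ones 1.10 ± 0.25 (adjusted p = 0.0049). Zhx3 was at 0.27 ± 0.15 (adjusted p = 0.15). Zhx2, with no test, was at 1.57 ± 0.28 within the dark-adapted arrays and -0.28 ± 0.28 within the light-adapted ones.

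The family members did not follow one another closely. Over the 10 group means Pearson's r was 0.42 between Zhx1 and Zhx2, 0.27 between Zhx1 and Zhx3, and 0.38 between Zhx2 and Zhx3, a description in which the means come from the same arrays. From the lowest to the highest array Zhx2 spanned 2.76 on the log2 scale, Zhx1 2.25 and Zhx3 1.04, where the median gene spanned 1.38. The Zhx2 span is set by dark-adapted arrays on which the gene was chosen, so nothing is read from it. That of Zhx1 reaches up to the 80.0 of replicate 2 of the light-adapted whole retina.

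The genes most like each member over the 10 group means were also listed, as the highest r among 15057 genes and with no test. For Zhx1 they were Slc25a14 (r = 0.958), Ift52 (0.953), Ccnt1 (0.951), Chfr (0.944) and Bptf (0.944). Ift52 encodes a subunit of the intraflagellar transport complex that builds cilia, and Bptf a chromatin remodelling subunit. For Zhx3 they were Necab1 (0.938), Sfxn1 (0.904), Pgrmc1 (0.90), Prkce (0.877) and Pja1 (0.876). Zhx2 had looser matches: Tmem179b (0.894), Pkp2 (0.886), Irf7 (0.856), Ppa2 (0.852) and Klhl23 (0.845). None of these 5 spanned more than 1.42 between its lowest and highest group on the log2 scale, against 2.44 for Zhx2. The choice of Zhx2 used the groups that set its span, so nothing is read from that contrast. Irf7, an interferon regulatory factor and the third in likeness, had group means of 102.3 in the dark-adapted photoreceptor layer and 83.9 in the dark-adapted whole retina, against 66.2 and 51.0 in the light.

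Other zinc finger homeobox genes give a frame for the family. Of 11 listed, 10 were measured. In the photoreceptor layer 2 were lower than in the other 3 layers and 0 higher, in the comparison that called 12.9% of all genes, with a median difference of -0.19 where all genes had -0.06. These were Zfhx4 (-0.92 ± 0.16, adjusted p = 0.0012) and Zeb2 (-0.66 ± 0.16, adjusted p = 0.011, and 0.052 to 0.069 when either light-adapted or the first dark-adapted photoreceptor layer array was left out). Zeb2 is a transcriptional repressor of the same zinc finger and homeobox class. In the inner plexiform layer 1 was higher, Tshz3 (0.45 ± 0.14, adjusted p = 0.041), a call that 12 of the 20 arrays each ended when left out; 1 of 10 is near the 13.6% of all genes called there. The inner nuclear and ganglion cell layers had 0 calls by limma, where 0.611% and 1.87% of all genes were called. The whole retina had 2 higher, Zeb1 (0.49 ± 0.16, adjusted p = 0.020) and Zfhx4 (0.53 ± 0.16, adjusted p = 0.013), and 2 lower, Zfhx2 (-0.53 ± 0.14, adjusted p = 0.0071) and Tshz3 (-0.40 ± 0.14, adjusted p = 0.025), with a list median of 0.03 where all genes had -0.18. These 4 of 10 compare with 48.5% of all genes. The Zfhx2 call was lost without the arrays with Y-linked signal (adjusted p = 0.099) and in the dark-adapted arrays alone (0.097). Leaving out replicate 2 of the light-adapted whole retina ended the calls of Zeb1 (adjusted p = 0.18), Zfhx4 (0.12) and Tshz3 (0.14). Without replicate 2 of the dark-adapted whole retina they were lost too (0.079, 0.12 and 0.13), and that of Zeb1 also without replicate 1 (0.055). None of these calls held in the dark-adapted arrays alone (0.24, 0.36 and 0.68). Homez, the closest relative of the Zhx genes, passed in no layer and read 27.1 to 59.8 over all arrays. Its dark minus light difference was 0.05 ± 0.30 in the photoreceptor layer and -0.03 ± 0.30 in the whole retina.

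The 4 listed partners of Zhx proteins were the NF-Y subunit genes Nfya, Nfyb and Nfyc and the methyltransferase gene Dnmt3b. In the photoreceptor layer 0 of 4 passed, with a median difference of 0.22, and 0 of 4 passed in the inner nuclear or ganglion cell layers. The shares of all genes called there were 12.9% for the photoreceptor, 0.611% for the inner nuclear and 1.87% for the ganglion cell layer, so 0 of 4 is near the background. In the inner plexiform layer Nfyb was lower (-0.57 ± 0.14, adjusted p = 0.013, but 0.062 without the second light-adapted and 0.052 without the second dark-adapted array of that layer). This 1 of 4 compares with 13.6% of all genes called there. The call was lost in the dark-adapted arrays alone (adjusted p = 0.22) and in the light-adapted ones alone (0.093). Nfyb was higher in the whole retina than in the layers (0.77 ± 0.13, adjusted p = 0.00035). So was Nfyc (0.32 ± 0.12, adjusted p = 0.041), a call lost when its 2 probe sets were averaged (0.09, adjusted p = 0.67) and without any of 10 single arrays (highest adjusted p = 0.22). These 2 of 4 are near the 48.5% of all genes called in the whole retina comparison. Nfya had a dark minus light difference of -0.19 ± 0.22 in the photoreceptor layer and 0.06 ± 0.22 in the whole retina.

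Genes reported as targets of Zhx2 in mouse liver gave little signal to compare. Of 5 listed, 2 passed the filter, the lipoprotein lipase gene Lpl and the fatty acid elongase gene Elovl3, and 0 of these 2 passed the test in any layer. The layer comparisons called 0.611% to 13.6% of all genes, so 0 of 2 is near the background. In the photoreceptor layer the dark minus light differences were -0.25 ± 0.32 for Lpl and 0.39 ± 0.41 for Elovl3. Afp read at most 29.7 and the proteoglycan gene Gpc3 at most 22.7 on any of the 20 arrays, under the filter. H19 was not analysed here.

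Zhx1 and Zhx2 both lie on mouse chromosome 15 and Zhx3 on chromosome 2, per a RefSeq table of GRCm38.p6. The protein-coding gene that follows Zhx2 in that table is Derl1, which acts in the degradation of misfolded proteins. Derl1 read 95.7 and 54.7 in the dark-adapted photoreceptor layer, against 100.8 and 85.8 in the light-adapted one, and 81.3 and 76.0 in the dark-adapted whole retina, against 76.0 and 88.1 in the light-adapted one. Dark-adapted and light-adapted readings of Derl1 overlapped in the photoreceptor layer, and in the whole retina 1 dark-adapted array equalled the lower light-adapted one.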

How the data were processed

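The deposited tables hold an intensity for each probe set, made with GCRMA per the submitters' processing notes; that it is linear was read from the values. GCRMA corrects for background and probe sequence and normalises between arrays; its version is not given in the sources used here. Values below a floor of 8 were raised to it before taking log2. A probe set was kept with exactly 1 platform symbol and a log2 value over 5 on at least 2 of 20 arrays. The kept probe set with the highest mean stood for its gene, giving 15057 genes from 35557 probe sets. The 3 Zhx genes passed, on 9 (Zhx1), 13 (Zhx2) and 20 (Zhx3) arrays. limma 3.58.1 in R 4.3.3 fitted a mean for each of the 10 groups, with moderated two-sided tests, an intensity trend and Benjamini-Hochberg adjustment over all genes at 0.05. The script was tested on simulated data. Precision is limited by how few arrays each group has.

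The members and gene lists were chosen with earlier results of these data known. Layer tests had been planned for Zhx2 too, but its layer differences are given with no test, because they rest on the arrays that led to its choice. Named genes are the 3 members, the 3 gene lists, the 5 genes most like each member by Pearson's r over group means, and the neighbours in the RefSeq table. Alternatives were other normalisations, filters, transformations, probe set rules, weights and blocks, and leaving out arrays.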

Additional observations from a re-analysis of the deposited data

Results flagged for a closer look

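The dark minus light difference of Zhx1 had opposite signs in different tissues, with all arrays of each tissue on one side. It was 0.59 in the photoreceptor layer and 0.18 in the inner nuclear layer, where both dark-adapted arrays lay above both light-adapted ones, and -0.58 in the whole retina, where both lay below. Of all genes, 16.1% lay above in this way in the photoreceptor layer and 11.9% in the inner nuclear layer. In the whole retina 11.1% lay below, so nothing is read from the separation of the arrays. The difference between the tissues was not tested. In the whole retina the value was -1.06 without replicate 1 of the light-adapted arrays, which carries Y-linked signal, and -0.10 without replicate 2. Groups of 2 arrays are too small for a check of single outlying arrays.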

How the results depend on the processing

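The 3 Zhx genes were followed through 1616 repeats of their differences, of which 1555 kept their direction and side of the threshold or, untested, moved by less than the spread between replicates. In many repeats the difference could not change, because the array left out was not part of the comparison. The count is therefore no measure of how firm the calls are. Where values changed the cause was not tested. With a filter at a log2 value of 7, Zhx1 and Zhx3 were not tested, and Zhx2 was kept. Zhx1 in the inner plexiform layer was at -0.64 with array weights (adjusted p = 0.062), -0.50 without both light-adapted arrays of that layer (0.43), -0.62 in the dark-adapted and -0.65 in the light-adapted arrays. In the light-adapted arrays alone Zhx1 was at 0.50 in the photoreceptor layer. Within the dark-adapted ones it was at 0.27 in the whole retina and -0.0197 in the ganglion cell layer. Zhx3 turned to 0.0215 in the inner nuclear layer within the light-adapted arrays and to -0.0122 in the inner plexiform layer without the arrays with Y-linked signal. Zhx2, untested, was in the dark-adapted and then the light-adapted arrays at 2.14 and -0.15 in the photoreceptor layer, -0.89 and 0.57 in the inner plexiform layer, and 1.57 and -0.28 in the whole retina. Its dark minus light difference was 1.70 in the photoreceptor layer and 1.77 in the whole retina with log2 of the intensity plus 16, and 2.68 in the whole retina without the arrays with Y-linked signal. Leaving out 1 array at a time gave, for Zhx1, 0.66 to 0.81 in the photoreceptor layer, -0.86 to -0.41 in the inner plexiform layer and 0.44 to 0.92 in the whole retina. For Zhx3 it gave -0.12 to 0.0794 in the inner nuclear layer, -0.17 to 0.23 in the inner plexiform layer, -0.36 to 0.0404 for the photoreceptor against the inner plexiform layer, -0.23 to 0.16 for the inner nuclear against the inner plexiform layer and -0.31 to 0.0838 for the inner plexiform against the ganglion cell layer. The Zhx2 dark minus light difference ran from 1.85 to 2.68 in the whole retina and from -1.10 to -0.24 in the inner plexiform layer.

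No label says that same-numbered arrays share a source. For that reason the main fit did not treat them as paired. Their deviations from the group means correlated positively in all 45 pairs of groups, at 0.006 to 0.479 (median 0.127), and over 0.1 in 32. Same-numbered arrays thus varied together in part, which the main fit leaves out, and the cause was not tested. With the replicate block the genes called rose from 92 to 239 in the inner nuclear comparison and from 282 to 510 in the ganglion cell comparison. With the replicate block Zhx1 in the photoreceptor layer stayed at 0.74 (adjusted p = 0.0055), and Zhx1 against the inner nuclear layer passed (adjusted p = 0.027). The calls over all genes were 1949, 92, 2045, 282 and 7301 for the photoreceptor, inner nuclear, inner plexiform, ganglion cell and whole retina comparisons. Over the alternatives other than leaving out 1 array they ran from 698 to 2942, 4 to 239, 9 to 2968, 48 to 510 and 2477 to 8031, and over leaving out 1 array from 1009 to 2200, 15 to 128, 1065 to 2381, 71 to 351 and 3884 to 7629.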
